A study of Homo sapiens with 12 samples.

Results

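The transcripts described here are those of the proteasome subunits, their activators, their inhibitor and the chaperones that assemble them, in C4-2 cells, a castration-resistant prostate cancer line derived from LNCaP. Genes were taken by symbol, namely the protein-coding genes whose name is PSMA, PSMB, PSMC, PSMD, PSME, PSMF or PSMG followed by a digit, without the interferon-inducible PSMB8 and PSMB9 and the thymic PSMB11. Of 47 candidates, 45 had an identifier in the count tables and at least 50 reads summed over the 12 samples, out of 54127 gene identifiers in all and 16708 with that many reads. PSMB3 could not be matched by identifier and was not analysed here, and PSMA8, a testis subunit, had 1 read. All 45 passed the filter on low counts. The symbol rule also took in PSMC3IP and PSME3IP1, which are named for binding partners and are no part of the proteasome, so 43 proteasome genes remained, and the 2 name matches are described apart.

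RNA-seq compared cells transfected with 50 nM of an siRNA pool against CHKA (siCHKA, n = 6) with cells given 50 nM of nontargeting siRNA (siNT, n = 6), all grown in RPMI medium with 10% serum. CHKA encodes choline kinase alpha, which phosphorylates choline, and the comparison asked how its loss changed the transcriptome. The cells are 1 line and the knockdown is transient and by 1 pool, so the loss of CHKA and other effects of the siRNAs cannot be told apart. Each sample had 10685184 to 24246055 reads on genes (median 17593748).

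The proteasome is the protease that destroys proteins tagged with ubiquitin. Its barrel, the core particle, stacks outer rings of alpha subunits, which gate entry, on inner rings of beta subunits, of which some carry the cutting sites. A regulatory particle caps the barrel: its base holds a ring of ATPases that unfold the substrate and thread it in, and its lid removes the ubiquitin chain. Cells depend on balanced supply of the subunits, and the transcription factor NFE2L1 is known to raise many of the genes together when proteasome activity falls short.

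CHKA itself checked the labels. Levels are given in CPM, the reads of a gene scaled to the total of its library after trimmed mean correction. Its level ranged from 1.91 to 4.67 CPM after siCHKA (median 2.31) and from 36.7 to 43.3 CPM after siNT (median 41.6), with no overlap (log2 fold change -3.88 ± 0.14 (SE), exact two-sided permutation test of 6 against 6, p = 0.0022, the smallest that 924 arrangements allow). All 9 prostate markers examined were expressed, among them KLK3 at 3252 ± 340.4 CPM after siNT (SD, n = 6). Of the 9 markers of blood, stromal, endothelial and basal cells with a count, CD3E had no read and PTPRC, COL1A2, DCN and KRT5 lay at or near 0. COL1A1, CD68 and KRT14 averaged 26.8, 4.88 and 1.80 CPM after siCHKA against 15.0, 2.98 and 1.21 CPM after siNT. VWF averaged 1.52 CPM after siCHKA against 3.00 CPM after siNT. The summed level of the 9 was 30.8 to 38.5 CPM after siCHKA and 18.7 to 26.8 CPM after siNT, most of it COL1A1, and their part in the results was not tested. SiCHKA replicates 1, 3 and 5 stood apart from replicates 2, 4 and 6, with pairwise chi-square per degree of freedom of 12.5 to 24.9 across the sets against 2.39 to 9.50 within them. The siNT pairs ranged from 2.51 to 30.9 on the same measure. Where the call of a named gene changed without either set of siCHKA samples, that change is given with the gene. PSMB5, PSMD9 and PSMF1 were called with neither set alone but changed sign between the sets. With only siCHKA replicates 1, 3 and 5 their log2 fold changes were 0.02, -0.16 and 0.07. The values with only 2, 4 and 6 were -0.09, 0.07 and -0.07.

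Most proteasome transcripts were lower after siCHKA. By edgeR's quasi-likelihood test with Benjamini-Hochberg adjustment over all 14501 tested genes (called at an adjusted p below 0.05), 27 of the 43 were lower, 4 were higher and 12 were not called, beside 30.1% of all tested genes called lower and 32.1% called higher. In 18 of the 43 every siCHKA sample lay below every siNT sample, beside 21.5% of all tested genes, and in 1 every siCHKA sample lay above, beside 19.1%. The changes were small. The median log2 fold change of the 43 was -0.20 (range -0.85 to 0.45), against 0.03 over all tested genes, and 37 of the 43 lay below the median of all genes. Only PSMB4 passed 1.5-fold downwards and none passed it upwards, where 11.3% and 13.4% of all tested genes did so with a call. Summed over the 43 genes, the level was 5392 to 5829 CPM after siCHKA (mean 5621 ± 169.3) and 6258 to 7113 CPM after siNT (mean 6727 ± 312.7, SD, n = 6 each), so that the groups did not overlap and siCHKA stood at 83.6% of siNT.

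Proteasome genes are highly expressed, and the level bears on these counts. The median member was expressed above 88.9% of all tested genes, and among the 2220 tested genes whose mean level fell within that of the middle 50% of the members, 45.3% were called lower and 21.9% higher. The excess of lower calls among the members is smaller beside this background than beside that of all genes. Under upper quartile scaling in place of trimmed mean scaling, every fold change moved up, by 0.15 in the median of all genes, and then 17 members were lower and 8 higher, beside 21.0% of all genes lower and 45.6% higher. The calls lost under it were those of PSMA1, PSMA2, PSMA3, PSMB1, PSMC6, PSMD5, PSMD8, PSMD12, PSMD13 and PSMG2 (adjusted p of 0.0516 for PSMC6 and 0.0857 or more for the others), and those gained, all higher, were PSMA4, PSMB5, PSMB7 and PSMF1. The members' median relative to that of all genes was -0.23 under either scaling. A change of scaling moves all fold changes nearly alike, so this difference could hardly change. No median was computed for genes at the members' level.

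**Figure D1:**
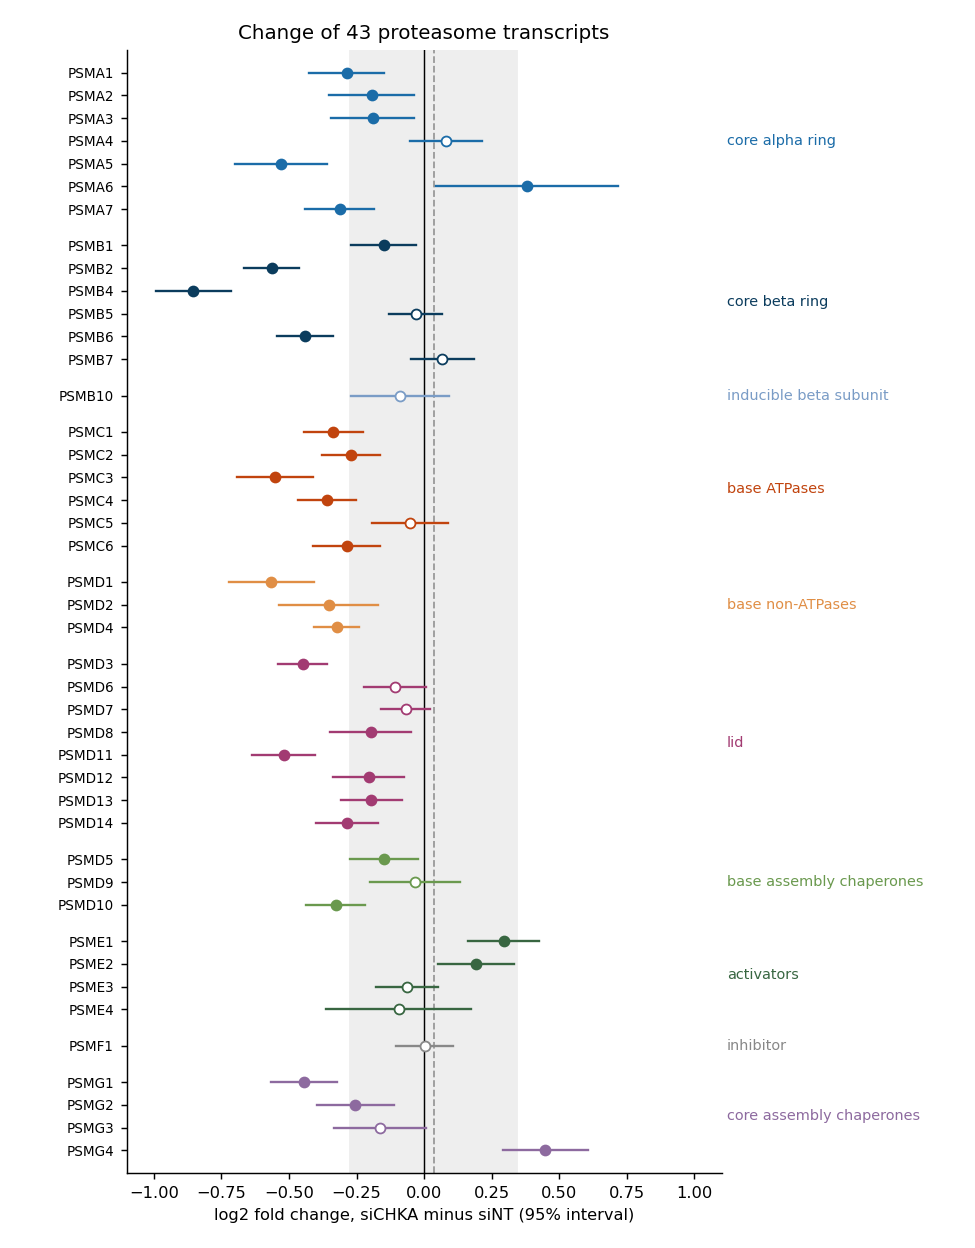
Log2 fold change (siCHKA minus siNT) with 95% interval for the 43 proteasome transcripts, ordered by subcomplex; filled points passed an adjusted p of 0.05, the dashed line is the median of all tested genes and the grey band their middle 50%. The points of the core and of the regulatory particle lie mostly left of 0, with PSMB4 farthest at -0.85, while PSMA6, PSME1, PSME2 and PSMG4 lie to the right.

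**Figure D2:**
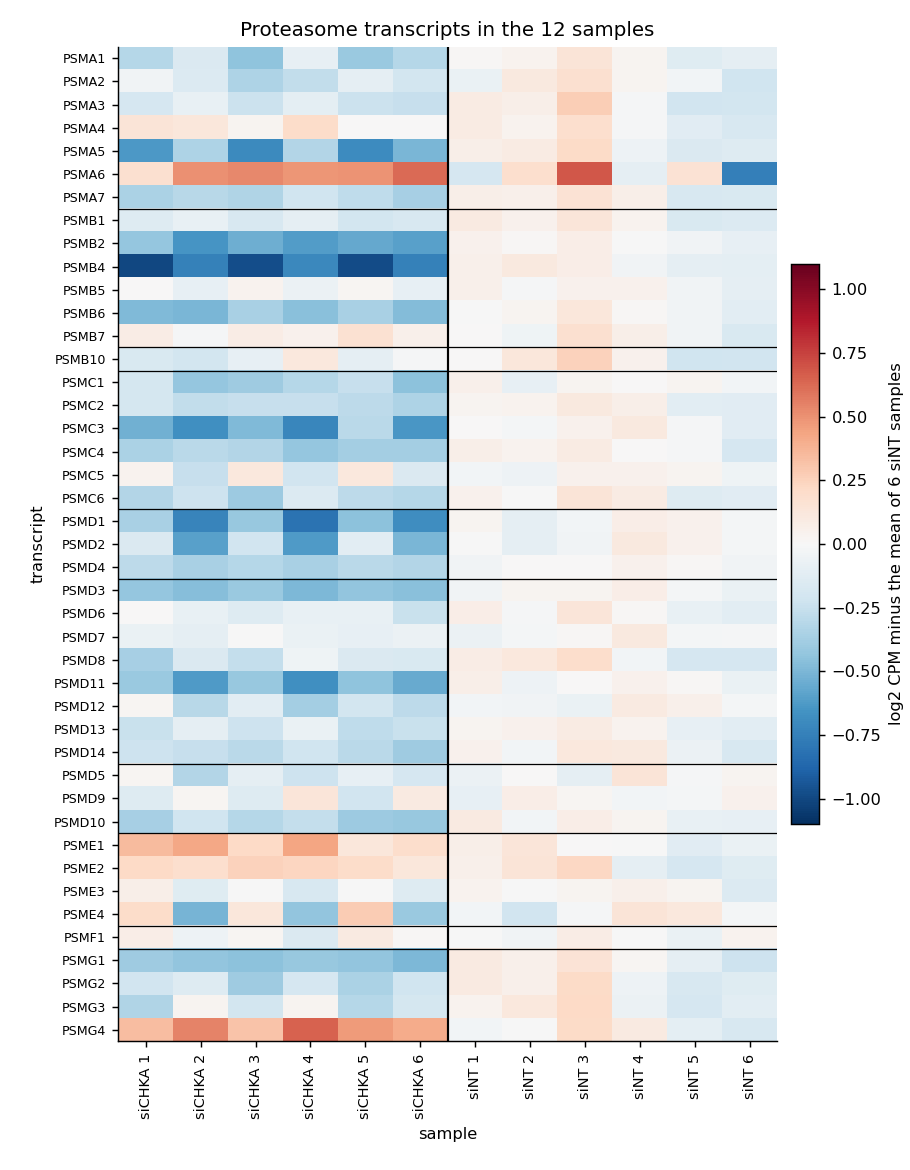
Log2 CPM of each proteasome transcript (rows, by subcomplex) in each of the 12 samples (columns), as the difference from the mean of the 6 siNT samples. Blue runs through all 6 siCHKA columns for PSMB4, PSMB2, PSMC3, PSMD1, PSMD3 and PSMD11, and the PSME4 row changes colour between siCHKA replicates 1, 3, 5 and 2, 4, 6.

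Because the genes are known to be raised together through antioxidant response elements, the sites read by NFE2L1 and its relatives, the stretch from 250 bases before to 50 bases after the start of each gene was searched for the core TGACNNNGC on both strands. RefSeq starts (GRCh38.p14) were at hand for 37 of the 43 members, all but PSMA7, PSMB1, PSMB6, PSMB7, PSMD4 and PSMG3. The core TGACNNNGC was found in 11 of the 37 (29.7%), against 13.6% of 27305 promoters and 15.2% of the 10594 that belong to tested genes. Of the copies upstream of the start, 7 are shown, since they include members called lower, called higher and not called. Each reads in the direction of its gene with the match in capitals, and the capitals of the PSME4 copy hold the core on the opposite strand.
PSMD3 promoter, chr17:39980760-39980788, plus strand: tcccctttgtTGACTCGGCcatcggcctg
PSMD12 promoter, chr17:67366724-67366752, minus strand: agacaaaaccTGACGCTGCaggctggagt
PSMG1 promoter, chr21:39183616-39183644, minus strand: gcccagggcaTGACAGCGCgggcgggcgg
PSMG2 promoter, chr18:12658689-12658717, plus strand: cagtttcccgTGACCCCGCggccgctctg
PSME1 promoter, chr14:24136098-24136126, plus strand: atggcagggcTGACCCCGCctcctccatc
PSME2 promoter, chr14:24146767-24146795, minus strand: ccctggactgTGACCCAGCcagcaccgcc
PSME4 promoter, chr2:53971009-53971037, minus strand: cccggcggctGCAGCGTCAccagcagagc
Of the 11 members with the core, 7 were lower after siCHKA, 2 higher and 2 not called, and their median log2 fold change was -0.21, against -0.20 for the 26 without it. Other words were counted the same way on both strands. The CCAAT box stood in 43.2% of the 37 and 35.7% of all promoters, the ETS core CCGGAAG in 32.4% and 10.7%, and the GC box GGGCGG in 64.9% and 44.6%. Among the promoters of tested genes the shares were 36.9%, 19.3% and 70.4% in the same order. A match is no evidence of binding.

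The alpha ring forms the gate of the barrel, and 5 of its 7 transcripts were lower, 1 was higher and PSMA4 was not called (median log2 fold change -0.19). The counts here and for the other subcomplexes stand beside 30.1% lower and 32.1% higher among all tested genes. At the members' level these shares were 45.3% and 21.9%. PSMA5 (ENSG00000143106) ranged from 139 to 180 CPM after siCHKA (median 153) and from 202 to 262 CPM after siNT (median 226). No siCHKA sample reached the lowest siNT sample, and the 3 lowest were replicates 1, 3 and 5. The log2 fold change of PSMA5 was -0.53 ± 0.08 (SE, adjusted p = 2.33e-05), -0.68 with only siCHKA replicates 1, 3 and 5 and -0.40 with only 2, 4 and 6. PSMA7, the most abundant alpha transcript per length, ranged from 238 to 263 CPM (median 245) against 271 to 341 CPM (median 318). These groups did not overlap either, at a log2 fold change of -0.31 ± 0.06 (SE, adjusted p = 0.00025).

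PSMA1, PSMA2 and PSMA3 were lower by less, with log2 fold changes of -0.29, -0.19 and -0.19 and overlapping groups (adjusted p = 0.00114, 0.0312 and 0.0313). The exons of PSMA1 and PSMA2 overlap protein-coding genes on the same strand (ENSG00000256206 and ENSG00000256646). Reads shared with those genes were left out, so the levels of PSMA1 and PSMA2 are uncertain. The PSMA2 and PSMA3 calls were fragile. Leaving out any of 5 libraries ended the call of PSMA2 (siCHKA 3, 4 and 6, siNT 2 and 3, adjusted p up to 0.072), and any of 6 ended that of PSMA3 (siCHKA 3, 5 and 6, siNT 1, 2 and 3, adjusted p up to 0.0648). With only siCHKA replicates 1, 3 and 5 the adjusted p of PSMA2 was 0.129, and with only 2, 4 and 6 that of PSMA3 was 0.136. PSMA4 was at 301 ± 17.5 CPM after siCHKA and 284 ± 26.3 CPM after siNT (log2 fold change 0.08, 95% interval -0.05 to 0.22), and it was called higher under upper quartile scaling (0.23, adjusted p = 0.0052).

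PSMA6 went the other way on few reads. It was counted at 5.38 to 7.30 CPM after siCHKA (median 6.72) and at 2.82 to 7.64 CPM after siNT (median 4.87). The siNT samples spread across the whole siCHKA range, and the log2 fold change of 0.38 ± 0.16 (SE, adjusted p = 0.0468) was past the threshold by little. It held without siCHKA replicate 1 or siNT replicate 3 and was lost without any of the other 10 libraries (adjusted p up to 0.102), and with only siCHKA replicates 1, 3 and 5 (adjusted p = 0.188) or only 2, 4 and 6 (adjusted p = 0.0545). Another protein-coding gene on the same strand, ENSG00000258790, overlaps the exons of PSMA6, and reads shared by overlapping genes were left out of the counts. Pseudogenes of PSMA6 held reads amounting to 6.34% of its own, the highest share of any of the 15 members with an annotated pseudogene, so both its level and its change are uncertain.

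The beta ring held PSMB4, the member with the lowest fold change. Of its 6 measured transcripts, 4 were lower and none was higher, beside 30.1% and 32.1% of all tested genes. The summed level of the 6 was 834 to 849 CPM in the 6 siCHKA samples against 987 to 1153 CPM in the siNT samples, 77.9% on average. PSMB4 (ENSG00000159377), a subunit without a cutting site that joins the ring late in assembly, ranged from 148 to 181 CPM after siCHKA (median 164) and from 275 to 319 CPM after siNT (median 297). The gap between the groups was larger than the range of either. Its log2 fold change was -0.85 ± 0.07 (SE, adjusted p = 6.44e-09), the lowest of the 43, and was -0.99 with only siCHKA replicates 1, 3 and 5 and -0.74 with only 2, 4 and 6. PSMB2 (ENSG00000126067), another subunit with no cutting site, ranged from 116 to 135 CPM (median 122) against 171 to 192 CPM (median 183). The groups stood well apart, at a log2 fold change of -0.56 ± 0.05 (SE, adjusted p = 2.67e-08).

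The transcripts of the cutting subunits did not move alike. PSMB6, which carries the caspase-like site, ranged from 85.2 to 94.1 CPM after siCHKA (median 87.0) and from 111 to 132 CPM after siNT (median 120), without overlap (log2 fold change -0.44 ± 0.05, SE, adjusted p = 6.77e-07). PSMB5, which carries the chymotrypsin-like site and is the main target of bortezomib, ranged from 126 to 138 CPM (median 132) against 125 to 140 CPM (median 136). Those ranges lay nearly on top of each other, and the log2 fold change was -0.03 with a 95% interval of -0.13 to 0.07, or 0.11 under upper quartile scaling (adjusted p = 0.0284). PSMB7, which carries the trypsin-like site, ranged from 143 to 162 CPM (median 151) against 128 to 163 CPM (median 142). It was not called either, at a log2 fold change of 0.07 with an interval of -0.05 to 0.18, though it was called higher under upper quartile scaling (0.21, adjusted p = 0.00219). The intervals of PSMB5 and PSMB7 leave room for a fall of at most 0.13 and 0.05 on the log2 scale in this fit, while that of PSMB6 ran from -0.54 to -0.34.

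PSMB1 was lower at a log2 value of -0.15 (adjusted p = 0.0304), with overlapping groups, and its call was lost without any of 6 libraries (siCHKA 3, 5 and 6, siNT 1, 2 and 3, adjusted p up to 0.0572) and with only siCHKA replicates 2, 4 and 6 (-0.13, adjusted p = 0.121). PSMB10, the inducible counterpart of PSMB7, was scarce. It ranged from 13.8 to 17.2 CPM after siCHKA (median 14.9) and from 13.7 to 18.9 CPM after siNT (median 16.1), a log2 fold change of -0.09 with an interval of -0.27 to 0.09. Of the subunits outside the symbol rule, PSMB8 and PSMB9 averaged 0.485 and 0.249 CPM after siNT and 0.512 and 0.546 CPM after siCHKA, below the level needed for a test, and PSMB11 had no read in any siCHKA sample.

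In the regulatory particle, 14 of 17 measured subunits were lower and none was higher. Among all tested genes 30.1% were lower and 32.1% higher, and among genes at the members' level 45.3% and 21.9%. All 17 had a log2 fold change below 0 (-0.57 to -0.05, median -0.29), of which PSMC5, PSMD6 and PSMD7 lay above 0 under upper quartile scaling. In 11 every siCHKA sample lay below every siNT sample, beside 21.5% of all tested genes. Among the ATPases that unfold substrates, 5 of 6 were lower. PSMC3 (ENSG00000165916) ranged from 112 to 150 CPM after siCHKA (median 123) and from 169 to 198 CPM after siNT (median 184). No sample crossed between the groups, and the log2 fold change was -0.55 ± 0.07 (SE, adjusted p = 1.64e-06). PSMC4 ranged from 137 to 149 CPM (median 143) against 161 to 195 CPM (median 186), again without overlap (log2 fold change -0.36 ± 0.05, SE, adjusted p = 8.79e-06). PSMC1, PSMC2 and PSMC6 were lower by 20.8%, 17.0% and 18.0%, each without overlap. PSMC2 shares exon sequence on its own strand with PMPCB in the annotation, and PSMC1 shares exon sequence with NRDE2 on the other strand.

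PSMC5 was not called, and its value turned on the siCHKA set. It ranged from 176 to 227 CPM after siCHKA and from 201 to 216 CPM after siNT, with siCHKA replicates 2, 4 and 6 below all siNT samples. The log2 fold change was -0.05 over all samples (interval -0.19 to 0.09), -0.21 with only siCHKA replicates 2, 4 and 6 (adjusted p = 0.00227) and 0.09 with only 1, 3 and 5 (adjusted p = 0.163).

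The base subunits that are not ATPases, among them those on which ubiquitin receptors and shuttle proteins dock, were all lower. PSMD1 (ENSG00000173692) ranged from 123 to 169 CPM after siCHKA (median 146) and from 202 to 227 CPM after siNT (median 217), a log2 fold change of -0.57 ± 0.07 (SE, adjusted p = 4.09e-06). PSMD4, itself a ubiquitin receptor, ranged from 93.3 to 97.5 CPM (median 95.6) against 116 to 124 CPM (median 120). Neither PSMD1 nor PSMD4 had overlapping groups, and for PSMD4 the log2 fold change was -0.32 ± 0.04 (SE, adjusted p = 1.83e-06). PSMD2, the scaffold beside PSMD1, fell from 545 ± 27.3 to 427 ± 68.0 CPM (SD, n = 6 each; log2 fold change -0.35, adjusted p = 0.00192). Its siCHKA samples spread widely. With only replicates 2, 4 and 6 its log2 fold change was -0.58 (adjusted p = 7.05e-07) and with only 1, 3 and 5 it was -0.16 (adjusted p = 0.0375), and for PSMD1 the corresponding values were -0.75 and -0.40.

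In the lid, 6 of 8 transcripts were lower and none was higher (median log2 fold change -0.20), beside 30.1% and 32.1% of all tested genes. PSMD3 (ENSG00000108344), whose promoter stretch is printed above, ranged from 198 to 210 CPM after siCHKA (median 204) and from 264 to 292 CPM after siNT (median 280). The groups lay far apart, at a log2 fold change of -0.45 ± 0.04 (SE, adjusted p = 9.25e-08), and the value was -0.48 and -0.42 with either set of 3 siCHKA samples. PSMD11, which helps hold lid and base together, ranged from 139 to 168 CPM (median 158) against 212 to 233 CPM (median 224). It too had no overlap (log2 fold change -0.52 ± 0.05, SE, adjusted p = 3.42e-07). PSMD14, the metalloprotease that cuts the ubiquitin chain from the substrate, fell from 140 ± 10.7 to 115 ± 4.94 CPM without overlap (SD, n = 6 each; log2 fold change -0.28, adjusted p = 0.000232). PSMD8, PSMD12 and PSMD13 were lower by 12.8%, 13.3% and 12.6% with overlapping groups. The call of PSMD8 was lost without siCHKA replicate 1 (adjusted p = 0.0534) and with only siCHKA replicates 2, 4 and 6 (-0.14, adjusted p = 0.147, against -0.27 with only 1, 3 and 5). That of PSMD12 was lost with only siCHKA replicates 1, 3 and 5 (-0.09, adjusted p = 0.212, against -0.33 with only 2, 4 and 6). PSMD6 and PSMD7 were not called, at log2 fold changes of -0.11 (interval -0.22 to 0.01) and -0.07 (interval -0.16 to 0.02). PSMD6 was called lower without siNT replicate 6 (-0.13, adjusted p = 0.0444).

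**Figure D3:**
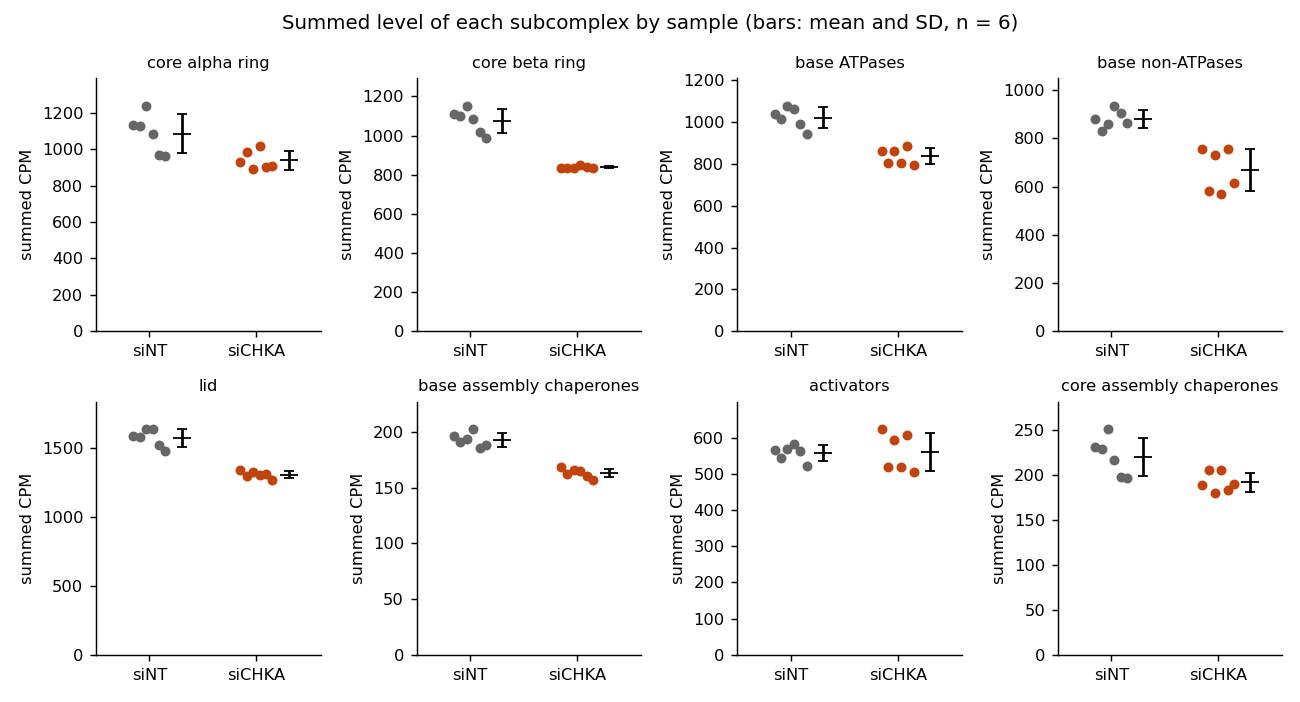
Summed CPM of the measured members of each subcomplex in each of the 12 samples, with mean and SD of 6 samples; every axis starts at 0. The beta ring, the ATPases, the other base subunits, the lid and the base assembly chaperones show no overlap between groups, whereas the activators average 561 CPM after siCHKA and 558 CPM after siNT.

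The chaperones that assemble the base bind the ATPases and leave before the particle is complete. PSMD10, also known as gankyrin, ranged from 81.2 to 93.2 CPM after siCHKA (median 85.7) and from 102 to 116 CPM after siNT (median 108), without overlap (log2 fold change -0.33 ± 0.05, SE, adjusted p = 2.78e-05). PSMD5 ranged from 59.8 to 75.7 CPM (median 67.8) against 69.7 to 82.4 CPM (median 74.5). Its groups overlapped, and the log2 fold change of -0.15 ± 0.06 (SE, adjusted p = 0.037) lost its call without any of 6 libraries (siCHKA 2, 4 and 6, siNT 2, 4 and 6, adjusted p up to 0.0997). With only siCHKA replicates 1, 3 and 5 the value was -0.05 (adjusted p = 0.473), and with only 2, 4 and 6 it was -0.25 (adjusted p = 0.002). PSMD9 was counted at only 9.04 ± 0.90 and 9.27 ± 0.37 CPM (SD, n = 6 each) and was not called. Its exons overlap another protein-coding gene on the same strand, ENSG00000256950, and shared reads were left out, so its level is uncertain.

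Activators replace or add to the regulatory particle at the ends of the barrel, and none of the 4 was called lower, beside 30.1% of all tested genes. PSME1 and PSME2 encode the partners of the interferon-inducible ring that opens the gate without ATP. PSME1 (ENSG00000092010) ranged from 88.4 to 110 CPM after siCHKA (median 98.7) and from 74.2 to 89.1 CPM after siNT (median 81.1). A single siCHKA sample lay below the highest siNT sample, and the log2 fold change was 0.29 ± 0.06 (SE, adjusted p = 0.000608). PSME2 ranged from 49.2 to 53.8 CPM (median 52.2) against 39.6 to 52.7 CPM (median 44.5). The groups overlapped through siNT replicate 3, which lay among the siCHKA samples, and siNT replicate 2, which lay above the lowest of them, and the log2 fold change of 0.19 ± 0.07 (SE, adjusted p = 0.0181) lost its call without siNT replicate 4 (0.16, adjusted p = 0.0547) or siNT replicate 5 (0.15, adjusted p = 0.0526). It was also lost with only siCHKA replicates 2, 4 and 6 (0.16, adjusted p = 0.0967), and the value with only 1, 3 and 5 was 0.22 (adjusted p = 0.0294). Their promoters, printed above, both hold the core, as do those of members that fell. In the annotation the exons of PSME1 and PSME2 share sequence with those of EMC9 and RNF31 on the other strand, and the strand setting of the counting is not given in the sources used here.

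PSME3, the nuclear activator, averaged 252 ± 17.2 CPM after siCHKA and 263 ± 13.2 CPM after siNT and was not called (log2 fold change -0.06, interval -0.18 to 0.05). It was called lower with only siCHKA replicates 2, 4 and 6 (-0.16, adjusted p = 0.0205) and stood at 0.02 with only 1, 3 and 5 (adjusted p = 0.778). PSME4, the large activator tied to histone turnover, depended on the siCHKA set more than any other member. It ranged from 117 to 203 CPM after siCHKA (median 154) and from 145 to 185 CPM after siNT (median 166). Replicates 2, 4 and 6 lay below every siNT sample, and replicates 1 and 5 above every siNT sample. The log2 fold change was -0.09 over all samples (interval -0.36 to 0.17), -0.46 with only siCHKA replicates 2, 4 and 6 (adjusted p = 4.22e-05) and 0.20 with only 1, 3 and 5 (adjusted p = 0.0263), so no direction can be given. PSMF1, an inhibitor of the core, ranged from 92.5 to 111 CPM (median 105) against 98.1 to 109 CPM (median 103). Its ranges overlapped throughout, with a log2 fold change of 0.00 and an interval of -0.10 to 0.11, though it was called higher under upper quartile scaling (0.15, adjusted p = 0.0125).

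The core assembly chaperones, which work in pairs to build the alpha ring, split. PSMG1 (ENSG00000183527) ranged from 45.3 to 48.6 CPM after siCHKA (median 47.3) and from 54.6 to 70.7 CPM after siNT (median 65.7), without overlap (log2 fold change -0.45 ± 0.06, SE, adjusted p = 3.98e-06). Its partner PSMG2 ranged from 69.5 to 82.8 CPM (median 78.5) against 80.8 to 106 CPM (median 91.2). The groups touched, at a log2 fold change of -0.25 ± 0.07 (SE, adjusted p = 0.00322). PSMG4 ranged from 26.9 to 33.8 CPM after siCHKA (median 29.3) and from 19.2 to 25.1 CPM after siNT (median 21.4). It was the only member with every siCHKA sample above every siNT sample, at a log2 fold change of 0.45 ± 0.07 (SE, adjusted p = 5.61e-05), and it shares exon sequence with SLC22A23 on the other strand. Its partner PSMG3 was not called (-0.16, interval -0.33 to 0.01). It was called lower without siCHKA replicate 2 (adjusted p = 0.0364), siCHKA replicate 4 (adjusted p = 0.0388) or siNT replicate 5 (adjusted p = 0.0398). With only siCHKA replicates 1, 3 and 5 its value was -0.29 (adjusted p = 0.00653), and with only 2, 4 and 6 it was -0.06 (adjusted p = 0.569).

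Levels were compared between genes as CPM per kilobase of the canonical transcript. The proteasome transcripts were not equal in this measure. After siNT, PSMB4 was at 322 ± 20.7, PSMA7 at 319 ± 30.0 and PSMB1 at 223 ± 19.3 (SD, n = 6), while PSMA6 at 4.85 ± 1.57 and PSMD9 at 3.40 ± 0.14 were lowest. The exons of PSMA6 and PSMD9 overlap other genes on the same strand, and shared reads were not counted, so these low levels are uncertain. PSMB4 and PSMA7 did not differ beyond their spread in siNT cells, and after siCHKA they were at 178 ± 17.4 and 257 ± 9.66. Within the lid the level ranged from 51.8 to 147 and among the ATPases from 18.0 to 157. With the length of all exons merged instead, PSMA7 came first (175) and PSMB4 next (139), so the order near the top depends on the length used.

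**Figure D4:**
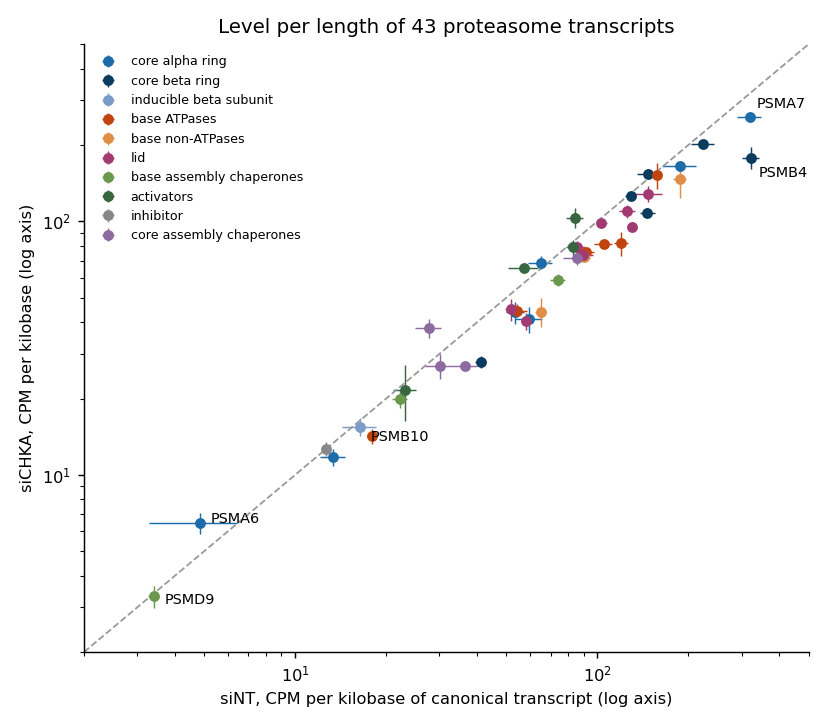
Level per length (CPM per kilobase of canonical transcript, log axes) of the 43 proteasome transcripts after siNT and after siCHKA, as mean with SD of 6 samples; the dashed line marks equal levels. Most points lie just under the line, and PSMB4 leaves the top position it holds after siNT (322) for 178 after siCHKA.

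Genes that work with the proteasome but are not named for it changed in both directions. Of 11 components and partners, 5 (45.5%) were lower, 1 was higher and 5 were not called (median log2 fold change 0.01), beside the 30.1% lower and 32.1% higher among all tested genes. USP14 and UCHL5, the deubiquitinases that trim chains at the regulatory particle, fell by 0.54 and 0.57 on the log2 scale (adjusted p = 5.35e-08 and 3.07e-08), each without overlap. AKIRIN2, which brings proteasomes into the nucleus, fell from 9.91 ± 0.87 to 5.28 ± 0.39 CPM (log2 fold change -0.92, adjusted p = 6.8e-08). PAAF1, a chaperone of the base, rose from 45.7 ± 2.40 to 57.2 ± 2.14 CPM (log2 fold change 0.32, adjusted p = 1.63e-05). The core maturation factor POMP was at 335 ± 22.2 and 325 ± 39.5 CPM and was not called, though it was called higher under upper quartile scaling (0.19, adjusted p = 0.0346).

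Of the 9 genes around NFE2L1, 4 (44.4%) were lower, 3 (33.3%) higher and 2 not called, beside 30.1% and 32.1% of all tested genes and 45.3% and 21.9% of genes at the members' level. NFE2L1 ranged from 180 to 211 CPM after siCHKA (median 200) and from 246 to 275 CPM after siNT (median 264). No siCHKA sample reached the siNT range, and the log2 fold change was -0.41 ± 0.05 (SE, adjusted p = 2.49e-06). The log2 fold change of its relative NFE2L2 was -0.88, that of DDI2, the protease that cuts NFE2L1 into its active form, -0.58, and that of VCP, which draws NFE2L1 out of the membrane, -0.43, all without overlap. MAFK (0.22), MAFF (0.44) and NGLY1 (0.16), which removes the sugars of NFE2L1, were higher. The calls of MAFF and NGLY1 were lost without siCHKA replicates 2, 4 and 6 and without 1, 3 and 5, respectively.

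Among 11 ubiquitin genes and shuttle factors, 4 (36.4%) were lower, 2 (18.2%) higher and 5 not called (30.1% and 32.1% of all tested genes). Nothing particular to these 3 lists is read from their counts. UBQLN1 and UBQLN4, which carry ubiquitinated proteins to the proteasome, had log2 fold changes of -0.33 and -0.32 without overlap. The polyubiquitin gene UBB had a value of -0.28 and overlapping groups, and its call was lost under upper quartile scaling (-0.13, adjusted p = 0.16). UBA1, the main ubiquitin-activating enzyme, had a value of 0.14. The call of UBA1 was lost without any of 8 libraries (siCHKA 1, 3 and 5, siNT 1, 2, 3, 4 and 6, adjusted p up to 0.0989) and with only siCHKA replicates 2, 4 and 6 (0.03, adjusted p = 0.673).

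The genes taken in by name alone were both lower. PSMC3IP (ENSG00000131470), a partner of the meiotic recombinase machinery, ranged from 2.31 to 3.96 CPM after siCHKA (median 3.15) and from 14.3 to 16.1 CPM after siNT (median 15.6), so that it stood at 20.5% of the control (log2 fold change -2.29 ± 0.11, SE, adjusted p = 1.35e-11). PSME3IP1, which binds PSME3, ranged from 54.2 to 55.7 CPM (median 55.1) against 73.6 to 80.9 CPM (median 78.5). In neither gene did the groups overlap, and the log2 fold change of PSME3IP1 was -0.50 ± 0.04 (SE, adjusted p = 1.04e-08). In the annotation PSMC3IP shares exon sequence with MLX on the other strand. Summed over the 12 samples, MLX had 21316 reads and PSMC3IP 1799.

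Words of 7 bases in 3′ UTRs were known from earlier results of these data to go with falls, GCCAGAT and TGCCCTT. They were counted in the canonical transcript of each tested gene with an annotated 3′ UTR (GENCODE 44, GRCh38). At least 1 copy was found in 5 of the 43 proteasome members (11.6%), PSMB2, PSMD10, PSMD11, PSMA4 and PSMF1, and in 23.6% of 12297 tested genes. The copies in members called lower are shown with the word in capitals, along with that of PSMC3IP, which fell most.
PSMB2, first copy, chr1:35602887-35602913, minus strand: tggttcttttTGCCCTTaaacttaaat
PSMB2, other copy, chr1:35599678-35599704, minus strand: cattcctctcTGCCCTTaaaactttct
PSMD10, chrX:108084599-108084625, minus strand: tagttgttctGCCAGATgtttctatgt
PSMD11, chr17:32481270-32481296, plus strand: acggcctgtcTGCCCTTccctccccac
PSMC3IP, chr17:42572618-42572644, minus strand: agtcaaacctGCCAGATatcaaacctg
Of the 5 members with a word, 3 were lower and 2 not called, and of the 38 without one, 24 were lower. The median log2 fold change was -0.33 with a word and -0.20 without, beside -0.12 and 0.04 over the 12297 tested genes with an annotated 3′ UTR. Because the words were picked for falls in these data, which hold these members too, both differences were built in and are no support. The same holds for the copy in PSMC3IP. The copies in PSMA4 and PSMF1, at log2 fold changes of 0.08 and 0.00, are not shown. The length of the 3′ UTR was not taken into account. PSMB4, PSMC3 and PSMD1 hold neither word. Whether an siRNA acts at these copies was not tested.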

How the data were processed

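RNA of 12 samples of C4-2 cells was sequenced (6 siCHKA, 6 siNT). The authors aligned single-end reads to GRCh37 with TopHat2 2.0.4 and deposited raw read counts per Ensembl gene from HTSeq 0.5.3p9, in 4 tables per sample, which were summed. Reads with several alignments (26.1 to 30.6% of all) and reads over several genes (2.82 to 2.93%) name no gene and were left out, as were reads on no gene (3.95 to 5.97%). The strand setting is not given in the sources used here. Besides the genes named with such an overlap above, PSMC5, PSME3, PSME4, PSMG2 and PSMG3, among others, share exon sequence with genes on the other strand. Symbols came from GENCODE 44, which matched 82.8% of identifiers. The floor of 3 reads was 0.124 to 0.281 CPM, for counting error only.

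EdgeR 4.0.16 (R 4.3.3) was run with filterByExpr, trimmed mean (TMM) scaling and a quasi-likelihood test of group over all 12 samples, and CPM used the scaled library sizes. It was tested on simulated data. DESeq2 1.42.0, other scalings and filters, leaving out libraries and a replicate block were the alternatives. The SE is the absolute log2 fold change over the square root of F. Groups came from the labels, which number replicates without naming separate cultures, so p-values measure the spread between these samples, which may be technical. The members and lists were chosen with earlier results of these data known. The range and median of each group were given for the 2 members of each subcomplex with the smallest p in each direction, for PSMB5, PSMB6 and PSMB7 and for subcomplexes of fewer than 3 members. From related lists the 3 genes with the smallest p in each direction and NFE2L1 were named, and others, such as POMP, PSMD2, PSMC5 and PSME4, were added after their values were seen. The marker PECAM1 had no matching identifier. Some genes of the related lists and markers are counted but not reported here by name.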

Additional observations from a re-analysis of the deposited data

Results flagged for a closer look

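In 3 of 92 groups of 6 values (45 members and CHKA, 2 groups each), 1 sample lay far from the other 5, and chance gives about 1 in 20, or 4.6. PSME3 was at 237.819 CPM in siNT replicate 6, with the others at 262 to 273 CPM. PSMA6 was at 5.37942 CPM in siCHKA replicate 1, with the others at 6.65 to 7.30 CPM. PSMD7 was at 166.894 CPM in siCHKA replicate 3, with the others at 157 to 160 CPM.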

How the results depend on the processing

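Each result was recomputed under 21 alternatives. Of the 27 members called lower, 17 kept direction and call in all of them, as did 2 of the 4 called higher. Upper quartile scaling moved most: 17 members were lower and 8 higher, and the median log2 fold change was -0.052 for all members, -0.048 for the core and the alpha ring, -0.14 for the regulatory particle, -0.15 for the beta ring, -0.17 for the ATPases, -0.056 for the lid, -0.063 for the core assembly chaperones, -0.0036 for the base assembly chaperones and 0.21 for the activators, and PSMB5 turned to 0.11. Without an expression filter the medians of all members and of the beta ring were -0.23 and -0.32, and with at least 10 reads in every sample -0.17 and -0.27. Without siCHKA replicates 1, 3 and 5, 2 members were higher, and the medians were -0.23 for all members, -0.33 for the regulatory particle, -0.58 for the non-ATPase base subunits and -0.25 for the base assembly chaperones. Without replicates 2, 4 and 6 they were -0.24 for all members, -0.26 for the lid and 0.21 for the activators, and PSME4 turned to 0.20. With 1 count table per sample they were -0.17 for all members, -0.24 for the regulatory particle, -0.27 for the ATPases and -0.11 for the base assembly chaperones. Leaving out 1 library at a time gave 23 to 28 members lower and 2 to 4 higher (2 without siNT replicate 4 or 5), with medians of -0.24 to -0.19 for all members, -0.32 to -0.27 for the regulatory particle and -0.32 to -0.28 for the beta ring. With the replicate block, 25 members were lower and 4 higher, PSMA2 and PSMD5 losing their calls; the numbers do not pair the samples, since same-number correlations ran from -0.40 to 0.32 and 2 of 6 passed 0.1. Causes were not tested. At this depth the median SE of a member was 0.06 on the log2 scale, and the smallest called change of a member was 0.15 in size, while PSMG3 at -0.16 was not called.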
